A study of Mus musculus with 4 samples.

Results

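L3mbtl4 Fezf2 deep-layer excitatory nuclei were 155 of the 50595 nuclei that passed the filters in 4 single-nucleus libraries of mouse brain. A nucleus was counted when it held at least 500 unique molecular identifiers (UMIs, each 1 tagged transcript), at least 300 genes and at most 5% of its UMIs from mitochondrially encoded genes. It further held at least 2 UMIs of Slc17a7, at most 1 UMI of Gad1 and Gad2 together, at least 2 of L3mbtl4 and at least 1 of Fezf2. Slc17a7 encodes the vesicular glutamate transporter of cortical and hippocampal excitatory neurons, and Gad1 and Gad2 encode the enzymes that make GABA. The nuclei were thus chosen by the measured UMIs of these 5 genes, so the levels of those genes, and the larger UMI totals they require, are given as a description.

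Fezf2 is a zinc finger transcription factor that directs young deep-layer cortical neurons to a subcortically projecting fate, and Bcl11b acts downstream of it in the growth of their axons. In the adult cortex such neurons include the layer 5 extratelencephalic neurons, which send axons to brainstem and spinal cord, and the layer 6 corticothalamic neurons, which innervate the thalamus. L3mbtl4 belongs to a family of proteins with MBT domains, folds that bind methylated histone tails.

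All mice were wild-type C57BL/6 aged 10 weeks, and the tissue was brain with the cerebellum removed, of which up to 50 mg was extracted after 10 min on dry ice. One harvest was post-mortem, after cervical dislocation, and the other took tissue by craniotomy from mice under isoflurane, which the labels call in vivo. Nuclei of each harvest were left unfixed or were held in 80% methanol at -20 °C for 30 min, and each of the 4 combinations is 1 library. There is no replicate of a condition, so no test between conditions was made, and harvest, animal and piece of tissue cannot be told apart. The labels do not say whether fixed and unfixed nuclei of a harvest came from the same brain.

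Values of the 4 libraries are given in the order post-mortem unfixed, post-mortem methanol, anaesthetised unfixed and anaesthetised methanol. The libraries held 14300, 10792, 17854 and 7649 nuclei after filtering, of which 1060, 1131, 1176 and 1525 met the Slc17a7, Gad1 and Gad2 steps. L3mbtl4 Fezf2 nuclei numbered 7, 11, 28 and 109. Their median UMI totals were 17178, 23242, 9893 and 21367, against 7782, 11294, 6306.5 and 14139 in the other Slc17a7 nuclei. They held 130248, 280383, 286280 and 2525242 UMIs in all, so the anaesthetised methanol library carries most of the counts. Mitochondrially encoded genes took a mean of 0.0453%, 0.00749%, 0.0444% and 0.0306% of their UMIs. No cell barcode was shared by L3mbtl4 Fezf2 nuclei of different libraries, while 691 barcodes were shared over all library pairs and 5 of the 155 nuclei had such a barcode. The doublet caller Scrublet marked 19 of the 155 nuclei (12.3%), close to the 13.1% of the other Slc17a7 nuclei.

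L3mbtl4 lies on the plus strand of chromosome 17 (mm10, chr17:68273797-68780086) and Fezf2 on the minus strand of chromosome 14 (chr14:12342094-12348189), both as protein-coding genes. Among the 155 nuclei L3mbtl4 reached up to 22 UMIs, with library medians of 2, 2, 4 and 5. Fezf2 reached up to 8 UMIs, with medians of 2, 1, 1 and 2. At the thresholds, 32 nuclei held exactly 2 L3mbtl4 UMIs, 67 held exactly 1 Fezf2 UMI and 15 did both. Just outside lay 213 Slc17a7 nuclei with at least 2 L3mbtl4 UMIs and no Fezf2, and 61 with 1 L3mbtl4 UMI and at least 1 of Fezf2. A further 185 nuclei met the L3mbtl4 and Fezf2 steps but failed an earlier one, 76 of them with no Slc17a7 UMI, 71 with 1 and 51 with more than 1 Gad1 or Gad2 UMI.

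Over all libraries Fezf2 was detected more often in nuclei with more L3mbtl4 UMIs, which were also deeper, but the rise was not steady in every library. Fezf2 was present in 10.7% of Slc17a7 nuclei without L3mbtl4 UMIs, in 13.8% of those with 1, in 24.6% of those with 2 and in 51.7% of those with 3 or more, and 155 of these last 238 nuclei came from the anaesthetised methanol library. In that library the shares were 17%, 14.2%, 27.8% and 60.6%, and in the post-mortem unfixed library 5.45%, 11.4%, 30.0% and 16.7%, the last over 6 nuclei. The median UMI totals over all libraries were 9391, 11905.5, 14110.5 and 16540 in the same order, and the part of depth in this was not tested.

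The share of L3mbtl4 Fezf2 nuclei among Slc17a7 nuclei differed between the libraries, and at equal depth few nuclei met the rule. Post-mortem shares were 0.660% (exact 95% interval 0.266 to 1.36) without fixation and 0.973% (0.487 to 1.73) with methanol. Anaesthetised shares were 2.38% (1.59 to 3.42) without fixation and 7.15% (5.91 to 8.56) with methanol. The anaesthetised libraries thus lay 3.61 times higher in the unfixed pair and 7.35 times higher in the methanol pair. Within each pair the intervals of the harvests did not overlap, while those of post-mortem methanol and anaesthetised unfixed did. These intervals are Clopper-Pearson intervals and cover counting error only.

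When each nucleus was thinned to 5000 UMIs before the rule was applied, shares fell to 0 of 556, 0 of 453, 7 of 559 (1.25%, 0.505 to 2.56) and 4 of 559 (0.716%, 0.195 to 1.82) nuclei. The exact 95% upper limits of the post-mortem counts of 0 are 0.661% and 0.811%, and a floor of 3 counts corresponds to 0.540% and 0.662%. Shallower Slc17a7 nuclei, 127, 16, 285 and 12 of them, were left out. At 3000 UMIs the counts were 0 of 319, 0 of 207, 2 of 378 (0.529%) and 1 of 238 (0.420%), with 16, 6, 41 and 5 nuclei left out. There the exact upper limits of the counts of 0 are 1.15% and 1.77%, and the floors of 3 counts 0.940% and 1.45%. The anaesthetised methanol library lay below the unfixed one at both depths, with overlapping intervals at 5000 UMIs, and the intervals of the harvests overlapped as well. In both settings the L3mbtl4 Fezf2 nuclei that remained came from the anaesthetised libraries. The L3mbtl4 step alone was met by more nuclei. At 5000 UMIs at least 2 L3mbtl4 UMIs were held by 2 of 556, 3 of 453, 34 of 559 and 23 of 559 Slc17a7 nuclei. At 3000 UMIs they were held by 1 of 319, 0 of 207, 10 of 378 and 5 of 238. On this step the anaesthetised libraries thus stayed higher at equal depth, and the cause was not tested.

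**Figure D1:**
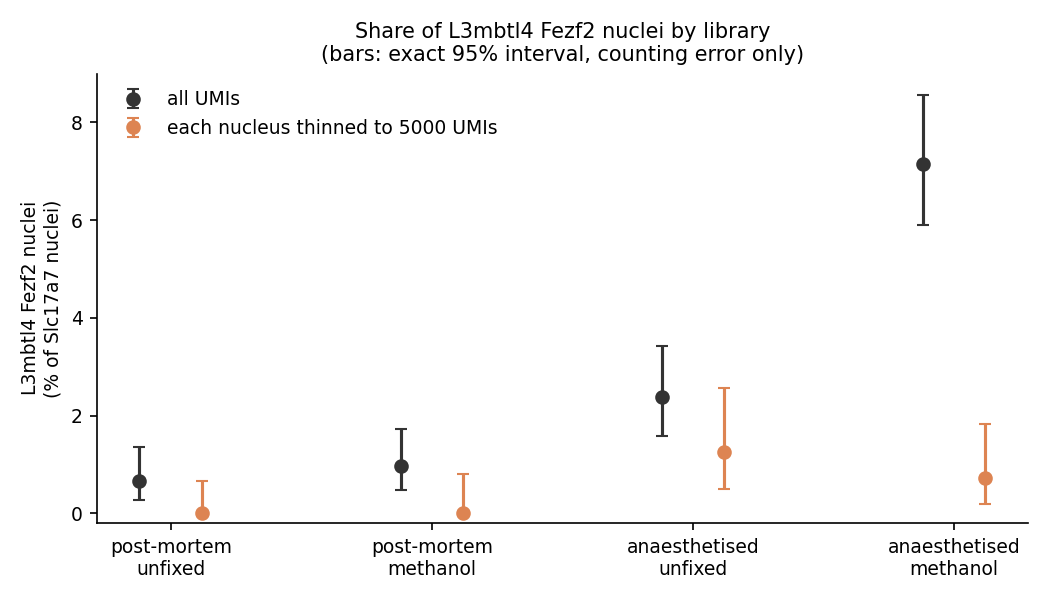
Share of L3mbtl4 Fezf2 nuclei among Slc17a7 nuclei (y axis, percent) in each of the 4 libraries (x axis), with all UMIs (black) and with each nucleus thinned to 5000 UMIs (orange); bars are exact 95% intervals for counting error. The anaesthetised methanol library stands at 7.15% with all UMIs and at 0.716% after thinning, where both post-mortem libraries are at 0.

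The label was checked against layer markers, with UMIs summed over the nuclei of a class in each library and scaled to 1000000 UMIs of that class and library (CPM). The layer 5 extratelencephalic list of 12 genes summed to 637, 542, 685 and 593 CPM in L3mbtl4 Fezf2 nuclei, against 217, 160, 285 and 192 in the other Slc17a7 nuclei and 193, 170, 218 and 181 in the Foxp2 Hs3st4 nuclei. The latter are 951 Slc17a7 nuclei with at least 2 UMIs of Foxp2 and of Hs3st4, markers of layer 6 corticothalamic neurons, and lie within the other Slc17a7 nuclei. The layer 6 corticothalamic list summed to 1804, 696, 985 and 1072 CPM in L3mbtl4 Fezf2 nuclei. In the other Slc17a7 nuclei it summed to 1680, 1909, 1563 and 1725, below which all but the post-mortem unfixed library lay. Most of the post-mortem unfixed sum came from 1 nucleus of 41234 UMIs, which Scrublet marked as a doublet. There the list held 41.2 UMIs per 10000, against 3.4 to 16.4 in the other L3mbtl4 Fezf2 nuclei of that library. In Foxp2 Hs3st4 nuclei the corticothalamic list summed to 4942, 5055, 5284 and 5227 CPM. That level was set in part by their choice, since Foxp2 and Hs3st4 are on the list. The 4 markers of layer 6b summed to 0, 0, 0 and 0.792 CPM. Chrna6 and Ptgfr, both on the extratelencephalic list, had no UMI in any of the 155 nuclei. The layer 5 extratelencephalic markers thus stood high and those of layer 6b were at or near 0, although 26 of the 155 nuclei, 23 of them in the anaesthetised methanol library, also met the Foxp2 and Hs3st4 thresholds.

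Genes were then compared over the whole table with edgeR's quasi-likelihood test on the UMIs summed per class and library, with the library as a block. A gene was called at an adjusted p below 0.05 and a change of at least 2-fold, and the genes of the rule were left out of the calls. Each fit has 8 sums and 3 residual degrees of freedom, and edgeR moves each gene's spread towards a spread shared over genes. The p-values thus do not rest on a gene's own spread over the 4 libraries alone. The smallest of them could not come from 3 degrees of freedom without that sharing. The 4 libraries may also come from fewer animals. Against the other Slc17a7 nuclei, 202 of 13443 genes (1.50%) were higher and 396 (2.95%) lower, and in 145 and 341 of these the difference had its direction in all 4 libraries. Without the anaesthetised methanol library the counts were 116 and 202 of 13108 genes, and with every nucleus thinned to 3000 UMIs 96 and 173 of 10567. Over the same 13443 genes they were 114 and 171 without the library block and 154 and 194 with DESeq2. Against the Foxp2 Hs3st4 nuclei, 261 of 10451 genes (2.50%) were higher and 258 (2.47%) lower, 225 and 227 of them in all 4 libraries. Either direction was thus called in 4.45% of genes in the first and in 4.97% in the second comparison. Without the anaesthetised methanol library 198 of 7591 genes were higher and 166 lower than in Foxp2 Hs3st4 nuclei. The comparisons share the L3mbtl4 Fezf2 nuclei, and the 951 Foxp2 Hs3st4 nuclei are among the 4737 other Slc17a7 nuclei, so a gene that moved in both is not thereby shown independently.

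Of the 9 measured layer 5 extratelencephalic markers 7 were higher than in the other Slc17a7 nuclei and none was lower, with a median log2 fold change of 1.47 against -0.04 over all genes. Bcl11b (chr12:107910403-108003602), the transcription factor downstream of Fezf2, stood at 161, 153, 255 and 193 CPM against 74.3, 50.0, 105 and 71.0, a log2 fold change of 1.40 ± 0.12 (SE; edgeR adjusted p = 4.16e-27). Each library's L3mbtl4 Fezf2 value lay above all 4 values of the other nuclei. Npr3, the natriuretic peptide clearance receptor, stood at 69.1, 82.0, 101 and 76.0 CPM against 21.5, 15.6, 16.8 and 16.7 (log2 2.27 ± 0.17, edgeR adjusted p = 6.2e-38). Pou3f1, a POU domain transcription factor, rose by 2.77 ± 0.35 on the log2 scale from only 53 UMIs, and an overlapping gene on the opposite strand held 1118, so its reads are uncertain. Vat1l, Bcl6, Slco2a1 (a prostaglandin transporter) and Npsr1 (the neuropeptide S receptor) were also called higher, at log2 1.86, 1.47, 2.40 and 1.30.

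Npsr1 and Bcl6 were uneven over the libraries. Npsr1 stood at 223, 196, 38.4 and 110 CPM against 51.3, 43.2, 71.1 and 48.0, and was lower than in the other nuclei in the anaesthetised unfixed library. Bcl6 stood at 69.1, 7.13, 45.4 and 37.2 CPM against 11, 7.40, 21.8 and 12.8, and was not higher in the post-mortem methanol library. Without the library block, 4 of the 9 markers were called, and 4 of 6 after thinning. Against the Foxp2 Hs3st4 nuclei 6 of 8 measured markers were higher (median log2 2.33), and Bcl11b, at 0.80 ± 0.14, missed the 2-fold threshold. Without the anaesthetised methanol library 3 of 4 measured markers were higher. Npsr1 had the largest increase among genes named in that comparison (log2 3.55 ± 0.33, edgeR adjusted p = 3.59e-07), from 3.16, 11, 12 and 15.7 CPM. It was concentrated in 1 cluster of 32 nuclei (cluster 3, at 400 CPM), which held 330 of its 373 UMIs, and stood at 17.9 CPM in the remaining L3mbtl4 Fezf2 nuclei, below the other Slc17a7 nuclei of every library.

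Markers of other layers were mostly lower than in the other Slc17a7 nuclei. Of the 8 layer 2/3 markers 7 fell against the other Slc17a7 nuclei (median log2 -1.87), among them Cux2, a homeobox factor of upper layers, at 61.4, 42.8, 10.5 and 10.3 CPM against 172, 99.6, 170 and 103 (log2 -2.75 ± 0.19). Calb1, the calcium buffer calbindin, fell by 3.14 on the log2 scale. All 3 measured layer 4 markers were lower, Rorb at 200, 242, 41.9 and 30.9 CPM against 307, 293, 140 and 137, and none of the 3 was called without the anaesthetised methanol library or without the library block. Of 5 measured markers of the layer 6 Car3 and claustrum class 4 were lower, with Oprk1, the kappa opioid receptor, at 4 UMIs in all. The layer 5 intratelencephalic list went the other way, with 3 of 5 measured genes higher: Etv1 at 76.8, 221, 101 and 169 CPM against 43.0, 61.4, 68.5 and 78.0, Colgalt2 and S100b. S100b overlaps another gene on the opposite strand, so its value is uncertain. Against the Foxp2 Hs3st4 nuclei, of 6 measured layer 2/3 markers 1 was higher (Lamp5), 1 lower (Calb1) and 4 neither (median log2 -0.40). The layer 2/3 list summed to 200, 228, 168 and 240 CPM, against 178, 205, 266 and 200 there, so its low level was shared by both classes. Of 2 layer 4 markers 0 were called, of 4 claustrum markers 1 was lower, and of 4 layer 5 intratelencephalic genes 3 were higher.

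Layer 6 corticothalamic markers were low against the Foxp2 Hs3st4 nuclei, which were chosen as corticothalamic by 2 genes of the list. Of its 7 measured genes, beside the 2 that define the comparison class, 6 were lower (median log2 -2.99). Tle4, a Groucho-type corepressor of corticothalamic neurons, stood at 84.5, 17.8, 38.4 and 39.2 CPM against 330, 349, 319 and 315 (log2 -2.99 ± 0.19, edgeR adjusted p = 3.28e-09). Syt6, a synaptotagmin, held 9 UMIs in 155 nuclei, at 7.68, 0, 0 and 3.17 CPM against 72.8, 66.9, 77.2 and 67.4. Ntsr1, the neurotensin receptor used as a corticothalamic marker, held 15 UMIs and fell by 1.63 ± 0.44. Thsd7b stood at 184, 60.6, 10.5 and 22.2 CPM against 577, 629, 468 and 468, and the groups did not overlap for any of these genes. In the post-mortem unfixed library all 18 Foxp2 UMIs of the 7 nuclei came from 1 nucleus. Against the other Slc17a7 nuclei 5 of the 10 corticothalamic genes were lower and none higher.

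**Figure D2:**
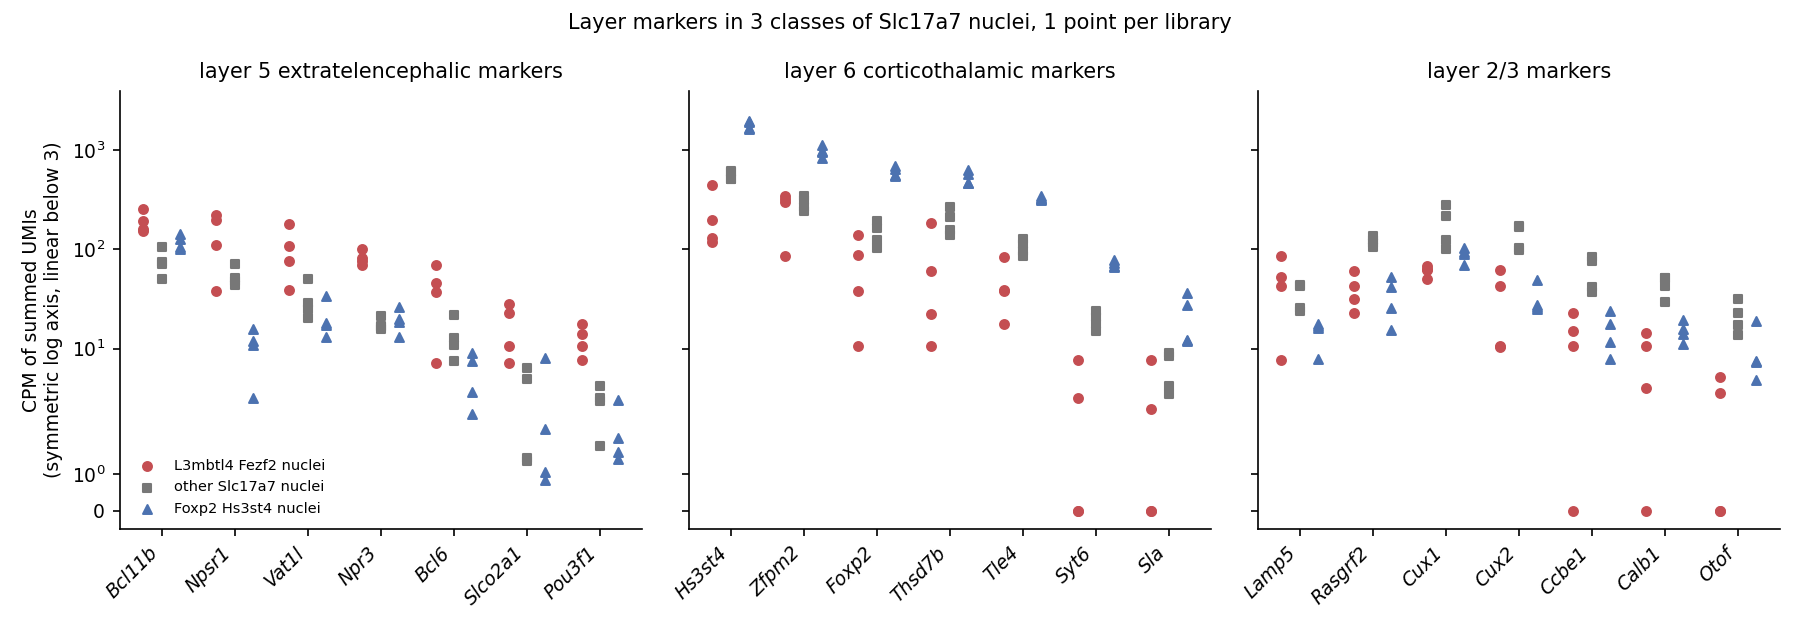
CPM of summed UMIs (y axis, symmetric log scale) of layer 5 extratelencephalic, layer 6 corticothalamic and layer 2/3 markers in L3mbtl4 Fezf2 nuclei (red circles), other Slc17a7 nuclei (grey squares) and Foxp2 Hs3st4 nuclei (blue triangles), 1 point per library. Bcl11b and Npr3 are highest in the L3mbtl4 Fezf2 nuclei in every library, while Tle4 and Syt6 are highest in the Foxp2 Hs3st4 nuclei.

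Markers of other cell kinds were low but not absent, and moved with the comparison in part. GABA interneuron markers summed to 76.8, 60.6, 69.9 and 69.7 CPM against 216, 171, 256 and 228 in the other Slc17a7 nuclei, with Lhx6 and Vip at 0 UMIs. Astrocyte markers summed to 269, 186, 262 and 213 CPM against 399, 390, 357 and 353, most of it Slc1a2, and Gfap was at 0. Oligodendrocyte markers summed to 123, 342, 241 and 169 CPM against 276, 224, 246 and 221, and 2 of 8 (Mobp and Mag) were called lower, which neither DESeq2 nor the fit without the anaesthetised methanol library did. Microglial markers summed to 53.7, 103, 129 and 89.1 CPM against 91.4, 68.8, 82.3 and 63.6, with none of 7 called by edgeR or DESeq2 and 3 higher at an unadjusted p below 0.05. With 4.45% of all genes called by edgeR in either direction, 0 of 7 cannot be told apart from that share. Endothelial and mural markers summed to 0, 3.57, 3.49 and 1.19 CPM, with Cldn5 and Kdr at 0. The part of these other cell kinds in the gene differences was not tested.

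Medium spiny neuron markers, genes of striatal projection neurons, gave a difference that changed with doublet removal. Of 7 measured genes 5 were lower than in Foxp2 Hs3st4 nuclei (Penk, Tac1, Ppp1r1b, Rgs9 and Drd1). After nuclei marked by Scrublet were removed, 2 of 5 (Rgs9 and Drd1) were lower and 1 higher, and 2 of 4 were lower without the anaesthetised methanol library. The whole list of 11 genes summed to 1198, 1002, 1485 and 1131 CPM, against 1428, 1145, 1391 and 1092 in Foxp2 Hs3st4 nuclei and 1176, 941, 1323 and 1008 in the other Slc17a7 nuclei. Most of that sum is Pde10a, a phosphodiesterase, at 1090, 899, 1404 and 1061 CPM in L3mbtl4 Fezf2 nuclei, which was not called against Foxp2 Hs3st4 nuclei (log2 0.22 ± 0.10). Rarb, a retinoic acid receptor on the same list, stood at 53.7, 64.2, 34.9 and 25.7 CPM against 121, 68.3, 105 and 52.8, a log2 fold change of -0.90 that became 1.04 (edgeR adjusted p = 0.0106) without those nuclei. Scrublet marked 17.8% of the Foxp2 Hs3st4 nuclei. Rarb also overlaps a gene on the opposite strand.

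Of the genes that were higher than in the other Slc17a7 nuclei in all 4 libraries, Tcerg1l (chr7:138208974-138397730), named for its likeness to a transcription elongation regulator, had the largest increase. It stood at 200, 111, 199 and 119 CPM against 21.0, 14.1, 38.5 and 16.9 (log2 2.80 ± 0.15, edgeR adjusted p = 6.33e-76), and at 7.91, 11.2, 21.1 and 16.4 in Foxp2 Hs3st4 nuclei (log2 3.33 ± 0.22). No value of either comparison class reached the lowest value of the L3mbtl4 Fezf2 nuclei. Parm1, which encodes a mucin-like membrane protein, stood at 238, 257, 199 and 188 CPM against 51.9, 36.5, 51.5 and 33.7 (log2 2.41 ± 0.13). Trmt9b stood at 61.4, 92.7, 87.3 and 85.5 CPM against 13.2, 11.4, 24.9 and 18 (log2 2.30 ± 0.17).

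The other genes with large increases in all 4 libraries were less abundant or overlapped another gene. Met, the hepatocyte growth factor receptor, rose by 2.38 ± 0.37 on the log2 scale from 43 UMIs, and Wwtr1, the Hippo pathway coactivator TAZ, by 2.35 ± 0.32 from 65. Esyt3 and Slc7a2 rested on 13 UMIs each. Gprc5b overlaps a gene on the opposite strand. Against the Foxp2 Hs3st4 nuclei, Tafa1, a secreted chemokine-like protein, stood at 3186, 3039, 3357 and 3524 CPM against 96.0, 255, 608 and 598 (log2 3.38 ± 0.27, edgeR adjusted p = 5.87e-08). Lpp, an adaptor at focal adhesions, stood at 177, 150, 154 and 125 CPM against 20.6, 26.4, 22.1 and 21.2 (log2 2.71 ± 0.16). Trpc7, a cation channel, Chst8, a sulfotransferase, and Slc26a4, the anion exchanger pendrin, were higher by log2 2.91, 2.79 and 2.66.

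Several genes had no UMI in any of the 155 nuclei. Myocd, a coactivator of serum response factor, had 0 UMIs where 22 were expected from the other Slc17a7 nuclei, and 62.9 from the Foxp2 Hs3st4 nuclei, in which it stood at 7.91, 11.2, 16.1 and 21.4 CPM. Against a floor of 3 counts over the group it was at least 7.32-fold lower in the first comparison and at least 21.0-fold lower in the second. Olfr111, Ntn4, Slc22a3, Tes, Lpl, Rnf39 and Zbtb8b had no UMI and were at least 2.19-fold to at least 4.41-fold lower than in the other Slc17a7 nuclei. Podn, a small leucine-rich proteoglycan, had 1 UMI where 45.9 were expected from the Foxp2 Hs3st4 nuclei (ratio 0.0218, 95% counting interval 0.000552 to 0.121). Arhgap25, Col5a1 and Svil held 6, 5 and 5 UMIs and were lower than in Foxp2 Hs3st4 nuclei by log2 -5.0, -4.44 and -4.18. Ebf1 and Dpp4, with 3 UMIs each, had ratios of 0.0411 (0.00848 to 0.120) and 0.0534 (0.0110 to 0.156).

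Of 41 measured transcription factors of corticofugal and layer identity, 7 were higher and 6 lower than in the other Slc17a7 nuclei. Of all genes 4.45% were called there in either direction. Tox, an HMG box factor, stood at 914, 1120, 1233 and 1197 CPM against 214, 304, 434 and 427 (log2 1.72 ± 0.10, edgeR adjusted p = 1.02e-65), with every library of the first group above every library of the second. Ldb2, a LIM domain binding cofactor, stood at 822, 760, 1114 and 926 CPM against 242, 251, 451 and 408 (log2 1.44 ± 0.10). Cux1 fell with Cux2, at log2 -1.26 ± 0.14. Against Foxp2 Hs3st4 nuclei Bhlhe40, a basic helix-loop-helix repressor, was higher by log2 1.82 ± 0.21, Tox by 1.56 and Ldb2 by 1.18. Zfpm2, a zinc finger cofactor of corticothalamic neurons, was lower at 299, 85.6, 346 and 319 CPM against 831, 968, 974 and 1126.

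Of 24 measured polycomb, MBT-domain and chromatin reader genes, 1 was lower than in the other Slc17a7 nuclei and none higher, where 4.45% of all genes were called in either direction. It was Sfmbt2, an MBT-domain protein, at 12 UMIs against 47.8 expected (log2 -2.03 ± 0.43), all of them in the anaesthetised methanol library, and it was not called without the library block or after thinning. Against Foxp2 Hs3st4 nuclei Sfmbt2 was lower again (log2 -2.52) and L3mbtl1 higher (1.10 ± 0.24, in 3 of 4 libraries), and neither was called without the anaesthetised methanol library.

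Ion channel genes were changed in both directions. Of 40 measured HCN and potassium channel genes 3 were higher and 9 lower than in the other Slc17a7 nuclei, where 4.45% of all genes were called in either direction. On that list 4 were lower without the anaesthetised methanol library, without the library block or after thinning. Pex5l, which encodes TRIP8b, the trafficking subunit of dendritic HCN channels, stood at 2111, 1922, 2742 and 2183 CPM against 798, 670, 843 and 602 (log2 1.63 ± 0.09, edgeR adjusted p = 2.32e-67). Kcnn2, a small-conductance calcium-activated potassium channel, stood at 368, 435, 433 and 520 CPM against 132, 142, 182 and 169 (log2 1.51 ± 0.11). Neither pair of groups overlapped. Kcnc2, a fast delayed rectifier, was lower at 76.8, 89.2, 34.9 and 74.5 CPM against 230, 285, 162 and 216, Kcnh1 by log2 -1.46 and Kcnip2 by -1.66.

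Among 27 sodium and calcium channel genes 1 was higher and 1 lower than in the other Slc17a7 nuclei, where 4.45% of all genes were called in either direction. So few calls are not read as a result about this list. Cacna1h, a T-type calcium channel, stood at 53.7, 32.1, 52.4 and 62.2 CPM against 9.83, 8.62, 22.7 and 20.3 (log2 1.65 ± 0.20), and all 4 of its values lay above the highest of the other nuclei. Cacnb2, an auxiliary subunit, stood at 146, 121, 307 and 275 CPM against 391, 391, 524 and 534 (log2 -1.09 ± 0.12), and was not called without the post-mortem methanol library or without the library block. Against Foxp2 Hs3st4 nuclei, Cacna1h and Cacna2d3 were higher by log2 2.39 and 1.50, and Pex5l by 1.84.

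Receptor genes showed the same mixture. The kainate receptor Grik2 stood at 1336, 1498, 2064 and 2275 CPM against 653, 775, 859 and 1013 (log2 1.11 ± 0.09). The AMPA receptor Gria4 was lower at 484, 517, 356 and 470 CPM against 1028, 1277, 917 and 1077, and the kainate receptor Grik1 fell by 2.07 on the log2 scale. Grik2, Gria4 and Grik1 were called in each alternative fit of that comparison. Of 12 GABA-A receptor subunits none was called by edgeR or DESeq2 against the other Slc17a7 nuclei, while 4 were higher and 2 lower at an unadjusted p below 0.05. Over all genes edgeR called 4.45% in either direction, so 0 of 12 cannot be told apart from that share.

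Of 41 measured receptors for neuromodulators and peptides 4 were higher and 6 lower than in the other Slc17a7 nuclei, beside 4.45% of all genes in either direction. Adra1a, the alpha-1A adrenoceptor, stood at 108, 82.0, 143 and 156 CPM against 22.4, 18.8, 41.1 and 29.1 (log2 2.23 ± 0.15, edgeR adjusted p = 6.49e-47), and was higher than in Foxp2 Hs3st4 nuclei by log2 1.56. Adcyap1r1, the PACAP receptor, was lower (log2 -1.95 ± 0.34) at 21 UMIs, while Adcyap1, which encodes PACAP, was higher (1.46 ± 0.29) in 3 of 4 libraries. Grp, gastrin-releasing peptide, was called higher at 0, 0, 14.0 and 28.5 CPM against 1.81, 2.66, 6.21 and 9.90, with no UMI in either post-mortem library. Neither peptide gene was called without the anaesthetised methanol library or by DESeq2.

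Axon guidance and adhesion genes also split. Of 53 measured guidance genes 5 were higher and 10 lower than in the other Slc17a7 nuclei, and of 48 measured against Foxp2 Hs3st4 nuclei 11 were higher and 6 lower. The shares of all genes called in either direction were 4.45% and 4.97%. Without the library block 2 guidance genes were higher and 6 lower than in the other Slc17a7 nuclei. Robo1, a receptor for Slit ligands, stood at 2165, 1944, 2864 and 2335 CPM against 536, 508, 1037 and 905 in the other nuclei (log2 1.68 ± 0.09, edgeR adjusted p = 8.21e-72) and 445, 511, 842 and 749 in Foxp2 Hs3st4 nuclei (log2 1.94 ± 0.11). Its lowest L3mbtl4 Fezf2 value was above the highest value of both classes. Slit3, a Slit ligand, was higher than in Foxp2 Hs3st4 nuclei (log2 1.22) and Epha6, an ephrin receptor, by log2 2.08. Sema3c, a secreted semaphorin, was higher in both comparisons (log2 2.06 and 2.24), and Sema5a and Sema5b, transmembrane semaphorins, were lower in both, Sema5a by log2 -1.96 and -3.69. Unc5d, a netrin receptor, stood at 161, 296, 126 and 110 CPM against 677, 712, 396 and 467 in the other nuclei.

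Of 25 measured cadherins 4 were higher and 4 lower than in the other Slc17a7 nuclei, beside 4.45% of all genes in either direction. Cdh20 and Cdh22 were higher in both comparisons, by log2 1.36 and 2.07 and by log2 1.23 and 2.20, and without the library block 2 of the 25 genes were higher than in the other nuclei. Pcdh9 was lower at 2019, 2500, 1083 and 1537 CPM against 4619, 5536, 3347 and 4061 in the other nuclei and 6634, 7718, 5583 and 6365 in Foxp2 Hs3st4 nuclei. Cdh18 fell by 2.18 ± 0.12 on the log2 scale against Foxp2 Hs3st4 nuclei. The groups did not overlap for Pcdh9 or Cdh18 in these comparisons.

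**Figure D3:**
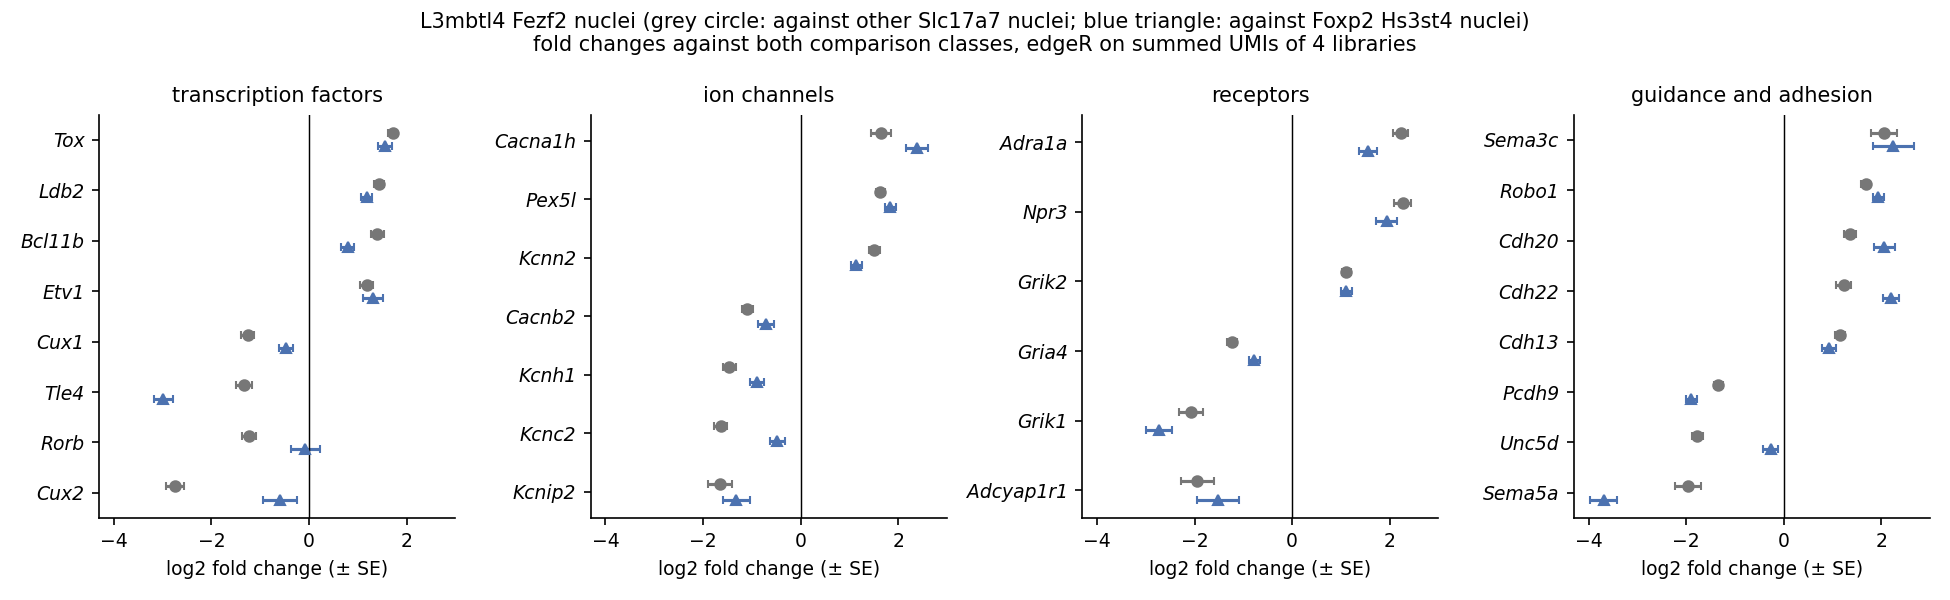
Log2 fold changes of L3mbtl4 Fezf2 nuclei (x axis, bars ± SE from edgeR) against other Slc17a7 nuclei (grey circles) and Foxp2 Hs3st4 nuclei (blue triangles) for named transcription factors, ion channels, receptors, and guidance and adhesion genes. Robo1, Pex5l and Tox are higher in both comparisons by more than 1 on the log2 scale, while Pcdh9 and Grik1 are lower in both and Cux2 and Unc5d fall mainly against the other Slc17a7 nuclei.

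Fixation was compared within L3mbtl4 Fezf2 nuclei as methanol over unfixed, first in the post-mortem and then in the anaesthetised pair, for 1296 genes with a mean of at least 20 CPM and at least 50 UMIs in each pair. A gene stood apart when it differed by at least 2-fold in the same direction in both pairs, which 1 gene (0.0772%) did upward and 4 (0.309%) downward. Alcam, a cell adhesion molecule of the immunoglobulin family, was the higher gene, at 84.5, 303, 52.4 and 140 CPM, with log2 ratios of 1.79 (95% counting interval 0.93 to 2.90) and 1.37 (0.67 to 2.27). In the other Slc17a7 nuclei its ratios were 0.19 and 0.24. The difference between the classes was not tested, and the unfixed values rest on 11 and 15 UMIs.

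Kcnq1, a potassium channel gene, stood at 269, 89.2, 171 and 62.2 CPM, with log2 ratios of -1.58 and -1.47, and at -1.53 and -1.64 in the other Slc17a7 nuclei. Kcnq1 overlaps the antisense RNA Kcnq1ot1, which held 1884 UMIs, and whether the counting used strand is not given in the sources used here. AY036118, a non-coding RNA gene that overlaps another one on the opposite strand, was lower by log2 -1.99 and -1.56. Its ratios in the other Slc17a7 nuclei were -1.645 and -2.107. The other 2 lower genes have predicted symbols. Over the same 1296 genes the other Slc17a7 nuclei gave 0 higher and 7 lower. With at least 100 UMIs in each pair, which left 588 genes, none was called in either direction.

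Harvest was compared as anaesthetised over post-mortem, first in the unfixed and then in the methanol pair, for 1325 genes, of which 15 (1.13%) were higher and 1 (0.0755%) lower. Tenm2, a teneurin of the synaptic membrane, stood at 806, 956, 4422 and 4070 CPM, with log2 ratios of 2.45 (95% counting interval 2.17 to 2.76) and 2.09 (1.92 to 2.27). Both anaesthetised values were more than 4 times either post-mortem value, and in the other Slc17a7 nuclei the ratios were 1.13 and 1.13. Cadm1, a synaptic adhesion molecule, stood at 330, 328, 1006 and 1168 CPM (log2 1.59 and 1.82, against 1.08 and 0.92 in the other nuclei). Sparcl1, a secreted synaptogenic protein, stood at 46.1, 74.9, 164 and 179 CPM (1.73 and 1.22, against 0.24 and 0.29).

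Zfp804b, a zinc finger gene, gave log2 ratios of 1.82 and 2.09, against 0.66 and 0.52 in the other nuclei, but 22 of its 31 UMIs in the post-mortem unfixed library came from 1 nucleus. St6galnac5, a sialyltransferase, gave 1.78 and 1.53 and was about as high in the other Slc17a7 nuclei, at 1.80 and 1.38. Crim1 (1.53 and 1.75), Cep112 (2.29 and 1.44) and Vat1l (1.19 and 1.40) were also higher in both pairs. In the other Slc17a7 nuclei Crim1 gave 1.29 and 1.095, Cep112 1.65 and 1.93, and Vat1l 0.79 and 0.29. In the post-mortem unfixed library Cep112 rests on 4 UMIs and Vat1l on 10. Galntl6, a glycosyltransferase-like gene, was the 1 lower gene, at 1328, 1883, 583 and 801 CPM (log2 -1.19 and -1.24), against -0.06 and -0.20 in the other Slc17a7 nuclei.

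Over the same 1325 genes the other Slc17a7 nuclei gave 14 higher and 1 lower. Scaling with TMM factors moved the median of all genes from 0.04 and 0.01 to 0.16 and 0.11, with 19 genes higher and 1 lower. With at least 100 UMIs in each pair 8 of 605 genes were higher and 1 lower, and without Scrublet doublets 19 of 1058 were higher and 4 lower. The post-mortem values rest on 7 and 11 nuclei, and the clusters described below were not evenly spread over the libraries, so library, animal and the mixture of nuclei cannot be told apart from harvest. Immediate early genes, which neuronal activity induces, had 2 measured members, neither past 2-fold in both pairs. Both had log2 ratios above 0 in both pairs, as did 455 of all 1325 genes, and their medians were 0.51 and 0.74, against 0.49 and 0.56 in the other Slc17a7 nuclei. The summed UMIs of all 28 genes on that list gave log2 ratios of 0.70 and 1.10, from 72 and 258 UMIs and from 144 and 2796.

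**Figure D4:**
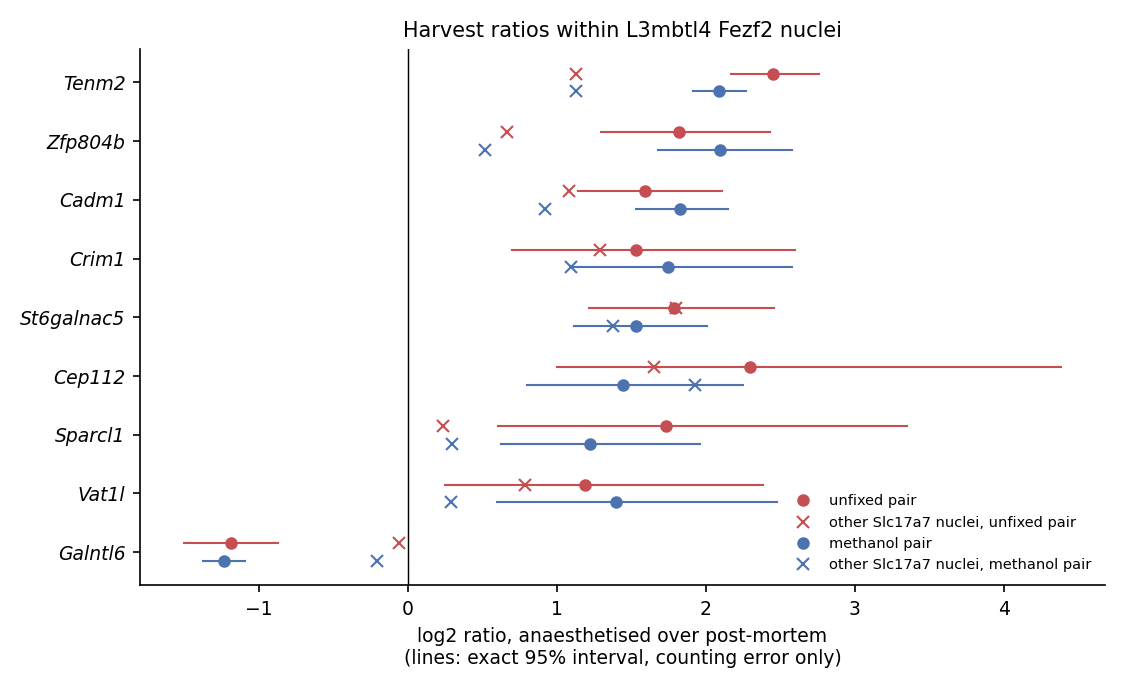
Log2 ratios of anaesthetised over post-mortem libraries (x axis) within L3mbtl4 Fezf2 nuclei for the 8 higher genes with the largest ratios and the 1 lower gene; circles with lines are ratios with exact 95% counting intervals in the unfixed (red) and methanol (blue) pair, crosses are the other Slc17a7 nuclei. Tenm2 lies at 2.45 and 2.09 with its intervals beyond the crosses at 1.13, while the St6galnac5 circles lie near their crosses.

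The 155 nuclei were not uniform. Leiden clustering gave 5 clusters of 40, 34, 32, 31 and 18 nuclei, which are described by their leading genes with no test, since the same genes made the clusters. Cluster 1 was led by Airn, Ccdc3 and Grp, and Airn stood at 59.6 CPM against 9.0 in the remaining nuclei. Cluster 2 was led by Rnf152, Kcnmb2 and Bdnf, a neurotrophin gene, at 102 against 24.4 CPM. Cluster 3 was led by Col8a1 and Npsr1, and Npsr1 stood at 400 CPM against 17.9. Its extratelencephalic list summed to 996 CPM, of which Npsr1 alone gave 400, against 590 in cluster 1, 674 in cluster 2 and 376 in cluster 4.

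Cluster 4 was led by Bmpr1b, a bone morphogenetic protein receptor, Ndst4 and Abi3bp, and 17 of its 31 nuclei were marked by Scrublet, at a median of 28055 UMIs against 16858 in the remaining nuclei. It held the highest corticothalamic list, at 1350 CPM against 951 in the remaining nuclei, but lists of unrelated cell kinds stood higher as well. Microglial markers summed to 192 CPM against 54.8, and GABA interneuron markers to 142 against 41.5. Oligodendrocyte precursor markers summed to 208 against 95.4 and astrocyte markers to 337 against 172.5. The medium spiny neuron list went the other way, at 1025 against 1202. Scrublet marked no nucleus of clusters 1 and 5 and 1 each of clusters 2 and 3.

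Cluster 5, with 18 nuclei, stood apart from the label. Its extratelencephalic list summed to 56.0 CPM, Bcl11b to 15.6 and Npr3 and Tcerg1l to 3.11 each, where Bcl11b stood between 129 and 318 CPM in the other clusters. Il1rapl2, an interleukin 1 receptor accessory-like synaptic protein, led it at 2529 CPM against 106, followed by Dach1 and Thsd7a. The layer 5 intratelencephalic list stood at 641 CPM, of which Etv1 alone gave 476, against 209 in the remaining nuclei. The layer 4 list was high as well, at 202 CPM against 46.2. Rorb stood at 193 CPM, against 12.6 to 58.7 in the other clusters, with 62 of the 184 Rorb UMIs of all L3mbtl4 Fezf2 nuclei. The L3mbtl4 and Fezf2 levels of cluster 5, at 187 and 93.3 CPM, lay within the range of the other clusters. These 18 nuclei met the rule but did not carry the extratelencephalic markers, and the cluster is left unnamed. It held 1, 3, 3 and 11 nuclei of the 4 libraries, while cluster 1 held 1, 0, 10 and 29.

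**Figure D5:**
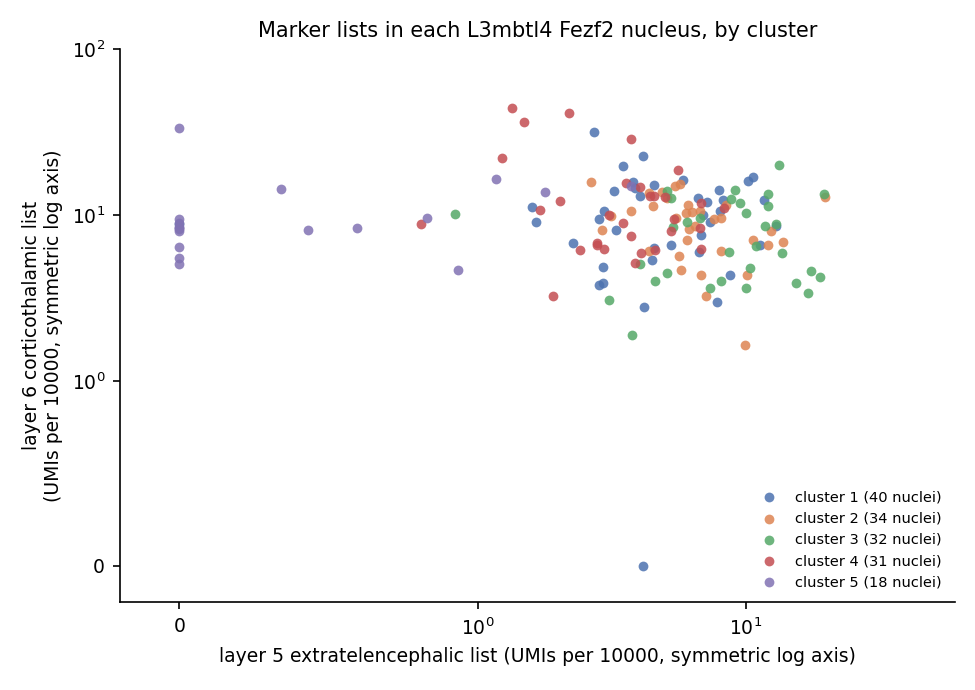
Layer 5 extratelencephalic list (x axis) and layer 6 corticothalamic list (y axis) in each of the 155 L3mbtl4 Fezf2 nuclei, in UMIs per 10000 on symmetric log axes, coloured by cluster. The 18 nuclei of cluster 5 (purple) lie between 0 and 3.74 on the extratelencephalic list, and their corticothalamic values lie within the range of the other clusters.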

How the data were processed

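The deposited values are whole-number UMI counts per gene and barcode for 32285 genes in 4 libraries made with a 3' droplet kit, as the authors deposited them, and the unit was checked on the values. The submitters' processing notes name mm10 as the genome build. The aligner, cell caller, annotation and strand setting are not given in the sources used here. Gene positions were read from GENCODE vM21 of that build, to which 32235 identifiers were matched.

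Nuclei were selected by the stated rule in scanpy 1.11.5, doublets were called with Scrublet at an assumed rate of 6% and kept, and UMIs were summed per class and library. Sums were compared with edgeR 4.0.16 (TMM, filterByExpr, quasi-likelihood, library as block, Benjamini-Hochberg), with DESeq2 1.42.0 as an alternative. Condition ratios had 0.5 counts added. Clusters used 2000 variable genes, 15 principal components, 15 neighbours and resolution 0.5. On simulated counts 85.3% of 95 genes changed 4-fold and 45.9% of 98 changed 2-fold were recovered among 13489 genes against the other Slc17a7 nuclei. Recovery there meant an edgeR adjusted p below 0.05 alone, without the 2-fold threshold of the calls. The simulated counts had 1 fixed dispersion for all genes, so recovery under the rule used for the calls is not given.

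Members, gene lists and tests were chosen with earlier results of these data known. Named genes were the 12 per direction with the largest change in all 4 libraries, up to 5 of the most abundant and up to 5 of the most changed genes of each list, 8 per direction for fixation and harvest, and 6 leading genes per cluster. Predicted symbols were counted and not named, and some results that the rule names are not reported here. Replicates of a condition were not present, and nothing in the labels shows how many animals the libraries stand for.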

Additional observations from a re-analysis of the deposited data

Results flagged for a closer look

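Sdk1, which encodes the synaptic adhesion protein sidekick-1 (chr5:141241490-142215586), moved in opposite directions with fixation in L3mbtl4 Fezf2 nuclei. It stood at 415, 114, 17.5 and 59.8 CPM in the post-mortem unfixed, post-mortem methanol, anaesthetised unfixed and anaesthetised methanol libraries. The log2 ratio of methanol over unfixed was -1.85 in the post-mortem pair and 1.64 in the anaesthetised pair, and the difference between the pairs was not tested. Of its 54 UMIs in the post-mortem unfixed library 48 (88.9%) came from 1 nucleus, and of 32 in the post-mortem methanol library 21 did. The anaesthetised unfixed value rests on 5 UMIs.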

How the results depend on the processing

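Counts of genes moved with depth and design, and in several settings the number of genes tested moved as well. Against the other Slc17a7 nuclei, 202 of 13443 genes were higher and 396 lower. Over those genes edgeR gave 114 and 171 without the library block, and DESeq2 gave 154 and 194. With each nucleus thinned to 3000 UMIs edgeR gave 96 and 173 of 10567. Leaving out each library gave 116 to 208 higher and 202 to 403 lower of 13108 to 13613 genes, the lowest without the anaesthetised methanol library. Against Foxp2 Hs3st4 nuclei, with 261 and 258 of 10451 genes, thinning gave 164 and 149 of 5620, and DESeq2 gave 164 lower of 10451. Leaving out each library gave 198 to 270 higher and 166 to 275 lower. Between 7591 and 11394 genes were then tested, the fewest without the anaesthetised methanol library. Rarb in that comparison reversed to 1.04 with Scrublet doublets removed.

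Shares of L3mbtl4 Fezf2 nuclei were 0.0490%, 0.102%, 0.157% and 1.43% of all nuclei. With at least 3 L3mbtl4 and 2 Fezf2 UMIs they were 0%, 0.265%, 0.935% and 3.74% of Slc17a7 nuclei, and with at least 1 of each 1.51%, 1.95%, 3.83% and 8.72%. Thinned to 3000 UMIs they were 0%, 0%, 0.529% and 0.420%, and to 5000 UMIs 0%, 0%, 1.25% and 0.716%.

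For fixation, 1 gene higher and 4 lower of 1296 became 3 higher with TMM factors and 0 and 0 of 588 at 100 UMIs per pair. At 5 CPM with no UMI minimum they became 284 and 465 of 10826, where 364 more genes differed 2-fold in opposite directions between the pairs. With doublets removed they were 3 and 2 of 1067, and after thinning 0 and 0 of only 125 genes. For harvest, 15 higher and 1 lower of 1325 became 8 higher of 605 at 100 UMIs and 4 lower of 1058 with doublets removed. At 5 CPM they became 200 and 362 of 10826, with 374 more in opposite directions, and after thinning 8 and 2 of 294. The clusters numbered 3 at resolution 0.3 and 6 at resolution 1.0. The cause of these shifts was not tested. The stricter rule was not run for fixation and harvest, since the post-mortem unfixed library then holds 0 nuclei. No paired analysis was possible because the labels give the groups no shared replicate numbers, and an additive fit of harvest and fixation over the 4 libraries, with 1 residual degree of freedom, was not run. The post-mortem libraries, with 7 and 11 nuclei, limit the harvest ratios and the post-mortem fixation ratio.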

Other observations

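Several lists of general cell physiology held no called gene against the other Slc17a7 nuclei, where edgeR called 4.45% of all genes in either direction. For the lists of 10 or 15 measured genes, 0 calls cannot be told apart from that share. None of 79 measured cytosolic ribosomal protein genes, 78 nuclear-encoded respiratory chain genes, 15 heat shock and chaperone genes or 10 glucocorticoid-responsive genes was called by edgeR or DESeq2 in either direction, with median log2 fold changes of -0.10, 0.07, 0.02 and 0.02. At an unadjusted p below 0.05 in edgeR, 1 ribosomal gene was higher and 1 lower, 4 respiratory chain genes were higher and 1 lower, 1 heat shock gene was lower and 1 glucocorticoid-responsive gene was higher. None of 10 measured mitochondrially encoded genes was called by either tool, with a median log2 fold change of 0.37 and 4 higher at an unadjusted p below 0.05. Their list summed to 453, 74.9, 444 and 306 CPM in the post-mortem unfixed, post-mortem methanol, anaesthetised unfixed and anaesthetised methanol libraries, against 218, 173, 443 and 237 in the other Slc17a7 nuclei, and was lower than there in the post-mortem methanol library. The most abundant nuclear non-coding RNAs also lay close to the other nuclei, with Meg3 at log2 0.42 ± 0.08 and Malat1 at -0.20 ± 0.08. Of 12 measured genes on that list, Neat1, the scaffold RNA of paraspeckles, was the 1 called gene, lower by log2 -1.60 ± 0.46 on 10 UMIs, and DESeq2 did not call it.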
